A study of Mus musculus with 10 samples.

Results

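Pth, Gcm2, Casr, Tg, Pax8, Hhex, Nkx2-1 and Tshr are genes of the parathyroid and thyroid glands, and their RNA was measured here in sorted epithelial cells of the mouse thymus. The 8 genes were taken by symbol from the 15790 genes of the deposited count table, and all 8 were found there. The first 3 belong to the parathyroid and the other 5 to the thyroid. Their levels differed so much between libraries of the same group that each library is given on its own.

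The study profiled RNA of thymic epithelial cells (TEC) in 10 bulk libraries, prepared with MARS-seq, a method that sequences transcripts at their 3′ end. The thymi were dissociated with Liberase TH and DNase and the cells were sorted with markers that the labels leave unnamed. AR3_mut was 3 libraries from mice with the mutation that the labels call Foxn1 del AR3 mut, of strain C57BL/6 and 4.5 weeks of age. The nude group was 4 libraries from nu/nu mice of strain ICR and 5 weeks of age. AR3_het was 3 libraries from heterozygous controls of the same deletion, also C57BL/6 and 4.5 weeks of age, so the controls carried the deletion on one of their alleles. TEC need the forkhead transcription factor Foxn1 to develop, and the nu allele inactivates it. Strain and age changed together with the nude genotype and cannot be told apart from it. Separate animals are not named in the labels, and p-values therefore speak only of the spread between libraries.

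The parathyroid glands and the thymus arise from the same endoderm, the third pharyngeal pouch, where Gcm2 marks the future parathyroid and Foxn1 the future thymus. Thyroid follicular cells arise elsewhere, from the floor of the pharynx, and depend on the transcription factors Pax8, Hhex, Nkx2-1 and Foxe1. The mouse thymus is known to hold parathyroid hormone-producing cells, and medullary TEC are known to make low levels of many products of other tissues, thyroglobulin among them.

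The libraries held between 1056066 (AR3_mut 3) and 4175851 counts (AR3_het 1), and 3 counts corresponded to between 0.718 and 2.84 CPM (counts scaled to a common library size) of the library total. Elsewhere, levels are CPM of the TMM-scaled library size. Foxn1 averaged 1.56 CPM in AR3_mut, 1.01 CPM in nude and 354 CPM in AR3_het, and fell in both mutant groups by edgeR's quasi-likelihood test with Benjamini-Hochberg adjustment (adjusted p = 3.26e-08 and 6.41e-09). The summed level of 7 cortical TEC genes lay between 478 and 533 CPM in AR3_mut, between 104 and 282 CPM in nude and between 16585 and 21019 CPM in AR3_het. Epcam, an epithelial surface marker, was present in every library, with 66.9 to 209 CPM in AR3_mut libraries, 248 to 517 CPM in nude libraries and 187 to 328 CPM in AR3_het libraries. AR3_het 3 stood apart by Ddx3y, a Y-linked gene, with 83.1 CPM against at most 1.03 CPM in each of the other 9 libraries. Xist, an RNA of the inactive X chromosome, had 1.07 CPM in AR3_het 3 and 26.8 to 51.9 CPM in the others. By both genes AR3_het 3 was male and the others female, so sex differed within the controls that both mutant groups share. After a filter on low counts 12912 genes were tested, and 4 of the 8 genes passed it: Pth, Gcm2, Tg and Hhex. The filter asks for counts in several libraries, so Pax8 and Nkx2-1, with nearly all their counts in 1 library, were among the 4 that did not.

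**Figure D1:**
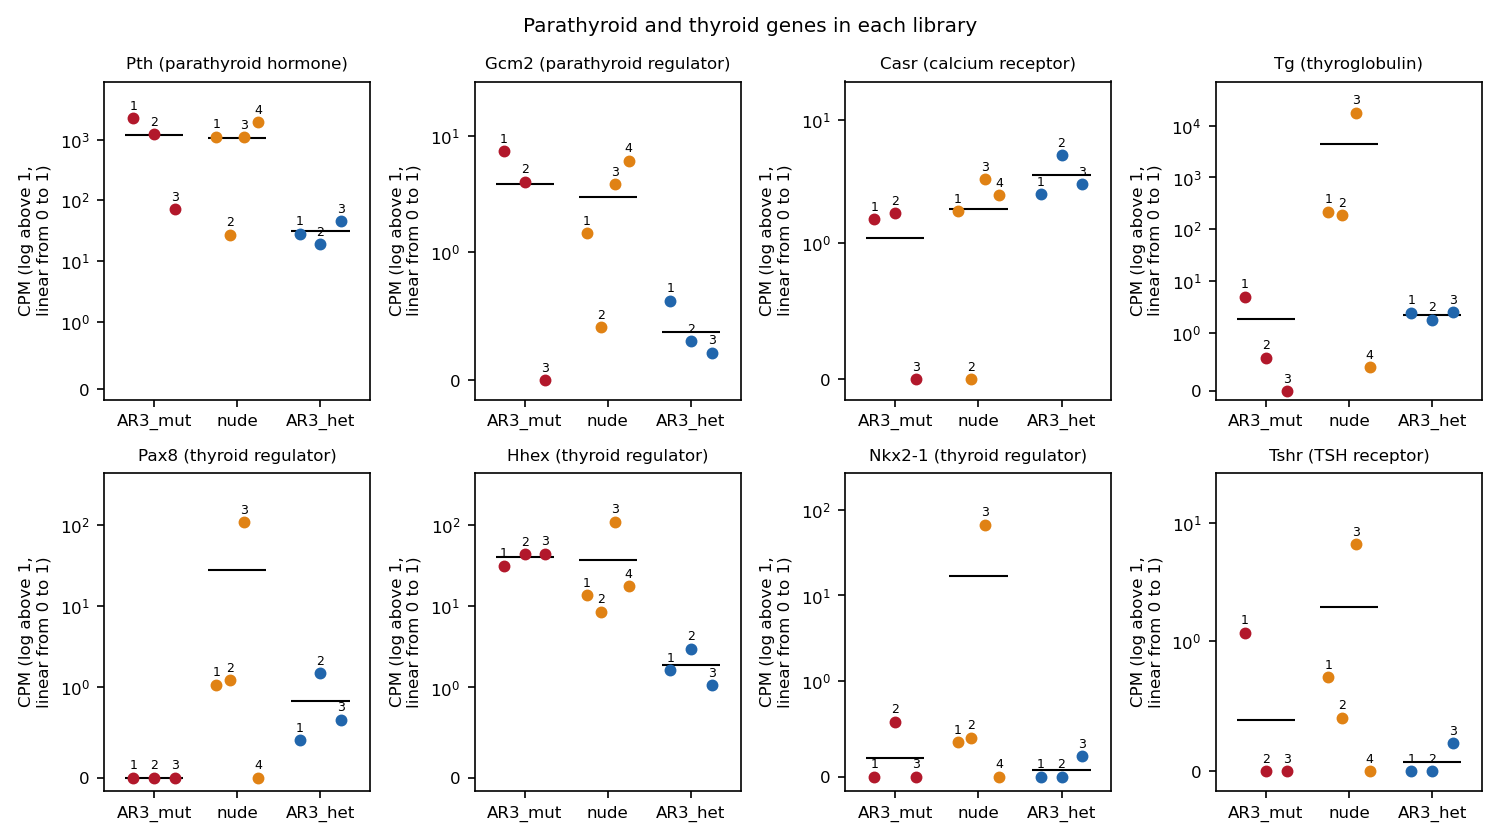
Level of each of the 8 genes in CPM (vertical axis, log scale above 1 and linear from 0 to 1) in AR3_mut, nude and AR3_het; each point is 1 library with its number and each horizontal line is the group mean. Pth is above 1000 CPM in AR3_mut 1, AR3_mut 2, nude 1, nude 3 and nude 4 and below 100 CPM in the other libraries, while Tg, Pax8, Hhex, Nkx2-1 and Tshr have their highest point in nude 3.

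Parathyroid hormone, encoded by Pth (chr7:113385580-113388570, minus strand, GRCm38), is the secreted hormone that raises blood calcium. Pth was higher in both mutant groups than in AR3_het, but by very different amounts in different libraries. In AR3_mut 1, 2 and 3 it had 2252, 1212 and 72.4 CPM. In nude 1, 2, 3 and 4 it had 1115, 27.1, 1107 and 1928 CPM, and in AR3_het 1, 2 and 3 it had 28.2, 19.0 and 45.9 CPM. AR3_mut and AR3_het therefore did not overlap, although AR3_mut 3 lay much nearer to the controls than to the other mutant libraries. The nude group did overlap AR3_het, because nude 2 fell within the control range. In bulk samples, fewer cells of a type and less RNA per cell cannot be told apart.

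Pth rose in AR3_mut against AR3_het by 5.24 on the log2 scale (SE 1.52, edgeR's quasi-likelihood test with Benjamini-Hochberg adjustment over 12912 genes, adjusted p = 0.0211). It rose in nude against the same AR3_het libraries by 5.06 on that scale (SE 1.48, adjusted p = 0.0191, same edgeR test). Between AR3_mut and nude the difference was 0.18 (SE 1.18, adjusted p = 0.960, same edgeR test), with an SE too wide to show that the groups were alike. Over all genes 41.8% passed for AR3_mut against AR3_het and 47.9% for nude against AR3_het, so a call is frequent in both. Among all tested genes 55% did not overlap between AR3_mut and AR3_het. The call against AR3_het was lost for AR3_mut without AR3_mut 1 (adjusted p = 0.0596), AR3_het 1 (0.0756), AR3_het 2 (0.0813) or AR3_het 3 (0.0623), and with limma-voom (0.0501). For nude the edgeR call was lost without AR3_het 1 (adjusted p = 0.0712), AR3_het 2 (0.0766) or AR3_het 3 (0.058). The authors' deposited table gave 5.19 for AR3_mut over AR3_het (adjusted p-value 0.000287) and, in the direction AR3_het over nude, -5.01 (adjusted p-value 0.000136).

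Pth took 0.217% of all counts in AR3_mut 1 (Wilson 95% interval 0.211% to 0.222%, counting error only), where it ranked 50th among all genes by count. The 250 bases before its RefSeq start (chr7:113388574-113388823, minus strand, GRCm38.p6) are shown because the gene encodes the hormone itself and rose in both mutant groups. The capitals mark TGACATCA, a variant of the cAMP response element, which 2.93% of 32851 RefSeq promoters of this length hold on either strand.
Pth: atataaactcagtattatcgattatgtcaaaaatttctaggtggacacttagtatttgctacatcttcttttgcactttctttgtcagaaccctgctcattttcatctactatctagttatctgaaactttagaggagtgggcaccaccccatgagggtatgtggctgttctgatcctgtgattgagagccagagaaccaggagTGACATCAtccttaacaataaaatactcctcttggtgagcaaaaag
The site of GCM-family proteins was searched as ATGCGGG on both strands; 1.19% of promoters held it and no promoter window of the 6 genes with a RefSeq entry did, which says only that these letters are absent from those windows.

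Gcm2 (chr13:41101427-41111035, minus strand) encodes the transcription factor that parathyroid cells need to form. It was counted 19, 7 and 0 times in AR3_mut 1, 2 and 3. It was counted 4, 1, 7 and 15 times in nude 1 to 4, and 3, 1 and 1 times in AR3_het 1 to 3. With 58 counts in all it was the sparsest of the 4 genes that passed the filter. Its highest libraries, AR3_mut 1 with 7.40 CPM and nude 4 with 6.12 CPM, were also the highest in Pth. AR3_mut 3 had no count, and nude 2 with 0.411 CPM lay inside the AR3_het range of 0.214 to 0.618 CPM, so both mutant groups overlapped the controls.

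Gcm2 rose by 3.35 on the log2 scale in AR3_mut against AR3_het (SE 1.04, edgeR's quasi-likelihood test, adjusted p = 0.0219). It rose by 2.77 in nude against AR3_het (SE 1.01, same edgeR test, adjusted p = 0.0405). The first edgeR call was lost without AR3_mut 1 (adjusted p = 0.150), AR3_het 2 (0.0668) or AR3_het 3 (0.0774). The second edgeR call was lost without AR3_mut 2 (adjusted p = 0.0539), nude 3 (0.0641), AR3_het 1 (0.0747), AR3_het 2 (0.105) or AR3_het 3 (0.124). Gcm2 passed the filter only through the mutant libraries where it was high: without nude 4, or with only 1 mutant group and AR3_het in the model, it did not pass and had no value. AR3_mut differed from nude by 0.58 (SE 0.81, adjusted p = 0.709, same edgeR test).

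Casr (chr16:36493696-36562141, minus strand) encodes the calcium-sensing receptor, through which parathyroid cells read calcium outside the cell. Unlike Pth and Gcm2 it was not higher in the mutant groups. It was counted 4, 3 and 0 times in AR3_mut 1 to 3. In nude 1 to 4 it had 5, 0, 6 and 6 counts, and in AR3_het 1 to 3 it had 12, 17 and 14. All 3 AR3_mut libraries, at 0 to 1.73 CPM, lay below the AR3_het libraries, at 2.47 to 5.13 CPM. The nude libraries reached 3.31 CPM in nude 3 and overlapped the controls.

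Casr did not pass the filter on low counts. The pooled counts gave a ratio of AR3_mut over AR3_het of 0.394 (exact 95% counting interval 0.149 to 0.883, counting error only), and an exact two-sided permutation test over the libraries gave p = 0.1, the smallest p that 3 against 3 libraries allow. The ratio of nude over AR3_het was 0.536 (interval 0.286 to 0.959) with an exact permutation p of 0.229, where the smallest possible p is 0.0286. Without nude 3 the ratio was 0.429 (0.199 to 0.845). The authors' deposited table called neither comparison, with a log2 fold change of -1.57 for AR3_mut over AR3_het (adjusted p-value 0.208) and 0.98 for AR3_het over nude (adjusted p-value 0.337).

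Chga encodes chromogranin A, a secretory-granule protein that parathyroid cells and other endocrine cells store with their hormone. In AR3_mut and nude its highest and lowest libraries were those of Pth, while in AR3_het it was highest where Pth was lowest. In AR3_mut 1, 2 and 3 Chga had 1996, 1074 and 64.4 CPM. In nude 1 to 4 it had 455, 16.4, 906 and 1162 CPM, and in AR3_het 1 to 3 it had 61.6, 73.7 and 58.8 CPM. Nude 1 and nude 3, nearly equal in Pth, differed in Chga, and AR3_mut 3 and nude 2 were again the low libraries of their groups. The number of Pth counts per Chga count was 1.13, 1.13 and 1.12 in AR3_mut 1, 2 and 3. It was 2.45, 1.65, 1.22 and 1.66 in nude 1 to 4 and 0.458, 0.258 and 0.782 in AR3_het 1 to 3. The ratio was therefore close to constant within AR3_mut over a wide range of levels, and below 1 in each AR3_het library. In AR3_mut 3 the Pth count was 1.26% and the Chga count 1.27% of that in AR3_mut 1, a smaller share than by CPM (3.21% and 3.23%) because AR3_mut 3 was the shallower library. In nude 2 the counts were 1.40% and 1.40% of those in nude 4, and 2.13% and 3.16% of those in nude 1. Carry-over of reads between libraries was not tested. Chga rose by 4.02 on the log2 scale in AR3_mut against AR3_het (SE 1.41, edgeR's quasi-likelihood test, adjusted p = 0.0469). For nude against AR3_het the value was 3.29 (SE 1.33, adjusted p = 0.0697, same edgeR test). The first edgeR call lay close to the threshold: it was lost without AR3_mut 1 (adjusted p = 0.131), AR3_mut 2 (0.0931), nude 3 (0.0710), AR3_het 1 (0.128), AR3_het 2 (0.122) or AR3_het 3 (0.134), without TMM scaling (0.0621), without the filter (0.0651), with the replicate number as a block (0.0957) and with limma-voom (0.133).

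Thyroglobulin, encoded by Tg (chr15:66670753-66850721, plus strand), is the protein from which thyroid hormone is made. It had more counts than any other gene in nude 3 and few in most other libraries. In AR3_mut 1, 2 and 3 Tg had 5.06, 0.577 and 0 CPM. In nude 1, 2, 3 and 4 it had 220, 186, 17628 and 0.408 CPM, and in AR3_het 1 to 3 it had 2.47, 1.81 and 2.56 CPM. Nude 3 stood 80.04-fold above the next library, nude 1, and held 96.6% of all Tg counts. Nude 1 and nude 2 also lay above every AR3_mut and AR3_het library, while nude 4 lay below all 3 controls, so the nude group overlapped AR3_het. In nude 3 Tg made up 1.68% of all counts (Wilson 95% interval 1.66% to 1.70%, counting error only).

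Tg rose by 10.90 on the log2 scale in nude against AR3_het (SE 3.14, edgeR's quasi-likelihood test, adjusted p = 0.0177). Without nude 3 it was 5.85 on that scale (adjusted p = 0.0136, same edgeR test), a value that rests on nude 1 and nude 2, whose Tg counts were 1.91% and 1.42% of that in nude 3. Carry-over of reads from nude 3 into these libraries was not tested. The call was lost without AR3_het 1 (adjusted p = 0.0671), AR3_het 2 (0.0699) or AR3_het 3 (0.0694), and limma-voom gave 5.86 with an adjusted p of 0.362. For AR3_mut against AR3_het the difference was 0.06 (SE 3.08, adjusted p = 0.991, same edgeR test); it changed sign to -2.53 without AR3_mut 1, to -0.09 without AR3_het 2, to -0.24 without TMM scaling and to -0.76 with limma-voom. With only AR3_mut and AR3_het in the model Tg did not pass the filter and had no value. It therefore passed only through the nude libraries where it was high. AR3_mut against nude gave -10.85 (SE 3.22, adjusted p = 0.0639, same edgeR test), which passed without nude 4 (-11.26, adjusted p = 0.0179). Without nude 3 it was -5.73 (adjusted p = 0.0576, same edgeR test). In that comparison 11.3% of all genes passed. The authors' deposited table called Tg in 2 comparisons, with -10.86 for AR3_het over nude (adjusted p-value 1.39e-06) and -11.15 for AR3_mut over nude (adjusted p-value 9.69e-06). Sla lies antisense within Tg and had 0 of its 505 counts in nude 3; the sources used here do not say whether the authors counted by strand.

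The 3 thyroid transcription factors differed in how many libraries held them. Pax8 (chr2:24420560-24475599, minus strand) encodes a paired-box factor that activates thyroid genes. It had 0 counts in each AR3_mut library, 3, 3, 199 and 0 counts in nude 1 to 4 and 2, 5 and 3 counts in AR3_het 1 to 3. Nude 3 reached 109.6 CPM, which was 72.6-fold above the next library, and no other library passed 1.51 CPM. Nkx2-1 (chr12:56531958-56536908, minus strand) encodes a homeobox factor of thyroid, lung and forebrain. AR3_mut 1 to 3 held 0, 1 and 0 of its counts, nude 1 to 4 held 1, 1, 121 and 0, and AR3_het 1 to 3 held 0, 0 and 1. Outside nude 3, at 66.7 CPM, only 4 counts of Nkx2-1 were made in the other 9 libraries together.

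The 250 bases before the RefSeq starts of Nkx2-1 (chr12:56536909-56537158, minus strand, GRCm38.p6) and Pax8 (chr2:24475600-24475849, minus strand, GRCm38.p6) are shown because both genes were high in the same library. The capitals mark CAAG, the core of the sites that NKX2-1 protein binds, or CTTG, its reverse complement.
Nkx2-1: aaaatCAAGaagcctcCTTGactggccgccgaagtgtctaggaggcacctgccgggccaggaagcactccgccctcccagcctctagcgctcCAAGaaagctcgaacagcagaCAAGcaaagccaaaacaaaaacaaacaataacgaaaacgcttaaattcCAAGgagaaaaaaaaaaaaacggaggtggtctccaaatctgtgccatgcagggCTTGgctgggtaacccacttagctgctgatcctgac
Pax8: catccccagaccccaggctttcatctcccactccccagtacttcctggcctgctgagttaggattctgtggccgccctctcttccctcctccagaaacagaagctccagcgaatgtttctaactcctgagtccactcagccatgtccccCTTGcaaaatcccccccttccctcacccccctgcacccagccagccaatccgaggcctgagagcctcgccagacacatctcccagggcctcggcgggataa
The Nkx2-1 window held 6 matches, a number that 2.9% of RefSeq promoters reach, and the Pax8 window held 1, as 86.6% of promoters do. A match of 4 letters is a description of the sequence and not a site.

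Neither gene passed the filter. Pax8 had 0 counts in AR3_mut and 10 in AR3_het, a ratio whose exact 95% counting interval ran from 0 to 1.08, so a difference was not detectable at this depth (exact two-sided permutation p = 0.1, the smallest possible). In nude against AR3_het the ratio of Pax8 was 27.8 (exact 95% counting interval 14.8 to 58.8; exact permutation p = 0.743). Without nude 3 that ratio was 1.01 (0.300 to 3.05), with 6 counts in nude and 10 in AR3_het. The ratio of Nkx2-1 in nude over AR3_het was 167 (interval 29.4 to 6635; exact permutation p = 0.543), from 123 counts in nude and 1 in AR3_het. Without nude 3 the counts were 2 in nude and 1 in AR3_het. With no filter on low counts, edgeR's quasi-likelihood test called Nkx2-1 in nude against AR3_het (7.06 on the log2 scale, adjusted p = 0.046) and did not call Pax8 (adjusted p = 0.140). The authors' deposited table called Nkx2-1 in the same comparison (adjusted p-value 0.0312) and Pax8 in AR3_mut over nude (-7.93, adjusted p-value 0.0225).

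Hhex (chr19:37434810-37440731, plus strand) encodes a homeobox factor of the early thyroid that liver, blood precursors and endothelium also use, and it was the one thyroid factor present in every library. It had 31.9, 44.4 and 44.6 CPM in AR3_mut 1 to 3. It had 13.7, 8.63, 111 and 17.9 CPM in nude 1 to 4, and 1.65, 3.02 and 1.07 CPM in AR3_het 1 to 3. Every library of both mutant groups lay above every AR3_het library. Nude 3 was again the highest library, 2.48-fold above AR3_mut 3, and the other 3 nude libraries lay below all AR3_mut libraries. Groups did not overlap for 55% of all tested genes in AR3_mut against AR3_het and for 53.8% in nude against AR3_het.

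Hhex rose by 4.42 on the log2 scale in AR3_mut against AR3_het (SE 0.99, edgeR's quasi-likelihood test, adjusted p = 0.00416) and by 4.30 in nude against AR3_het (SE 0.95, adjusted p = 0.00329). Without nude 3 the second value was 2.85 (adjusted p = 0.000147, same edgeR test). AR3_mut and nude differed by 0.12 (SE 0.74, adjusted p = 0.956, same edgeR test). Without nude 3 that difference was 1.57 and passed (adjusted p = 0.0105, same edgeR test). Endothelial genes moved with Hhex: all 9 of a list of 9 rose in AR3_mut and in nude against AR3_het. Their summed level lay between 4097 and 4958 CPM in AR3_mut, between 749 and 1534 CPM in nude and between 126 and 153 CPM in AR3_het, and none of the 9 was at 0 in any library. Nude 3 and nude 4 had endothelial sums of 1515 and 1534 CPM but Hhex levels of 111 and 17.9 CPM. The part of endothelial RNA in the level of Hhex was not tested.

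Tshr (chr12:91384563-91549808, plus strand) encodes the receptor for thyrotropin, the pituitary hormone that drives the thyroid. AR3_mut 1 to 3 held 3, 0 and 0 of its counts, nude 1 to 4 held 2, 1, 12 and 0, and AR3_het 1 to 3 held 0, 0 and 1. Nude 3 was the highest library at 6.61 CPM. The ratio in nude over AR3_het was 20.3 (exact 95% counting interval 3.13 to 855; exact permutation p = 0.543), and without nude 3 it rested on 3 counts in nude and 1 in AR3_het.

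**Figure D2:**
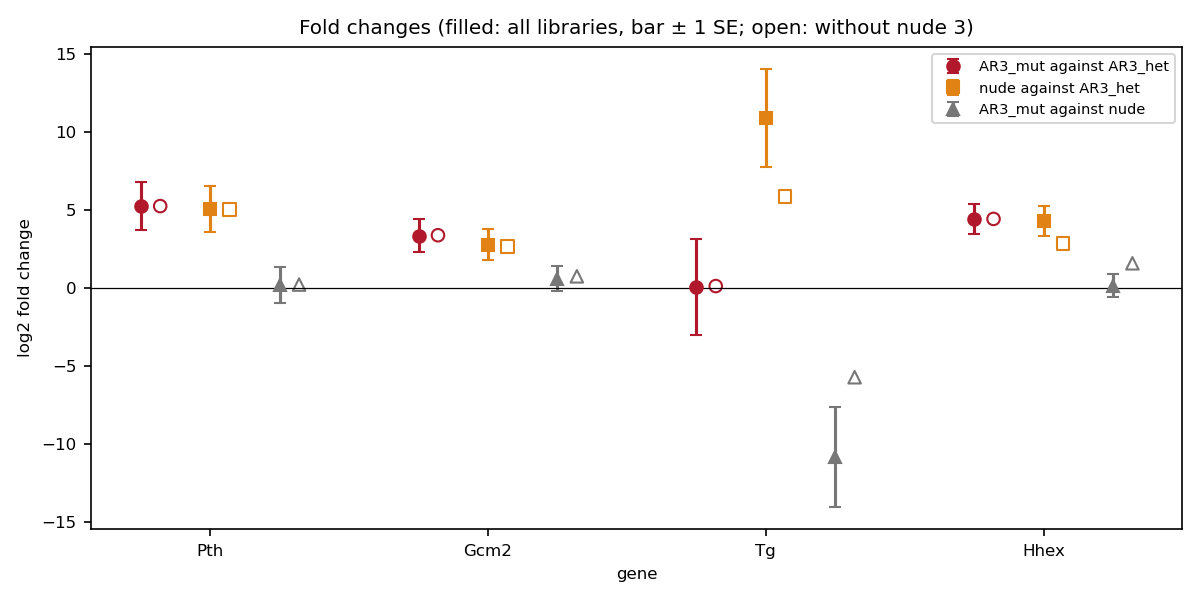
Log2 fold change (vertical axis) of the 4 tested genes for each mutant group against AR3_het and for AR3_mut against nude; filled symbols use all libraries with bars of 1 SE, and open symbols leave out nude 3. The nude value of Tg is 10.90 with nude 3 and 5.85 without it, and that of Hhex is 4.30 and 2.85, while Pth and Gcm2 hardly move.

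In nude 3 the thyroid genes were high together. Tg, Pax8, Hhex and Nkx2-1, the thyroid genes among the 8 with at least 20 counts, had their highest CPM there. For Pax8 and Nkx2-1 the cut of 20 counts fixed this. They had only 16 and 4 counts outside nude 3 and reached the cut only through it. Tg and Hhex were among the tested genes, of which 10.3% had their highest CPM in nude 3. Of a list of other genes of thyroid hormone synthesis and transport with at least 20 counts, 3 of 14 had their highest level in nude 3. They were Slc5a5, the iodide importer, Iyd, which recovers iodide, and Cdh16, a thyroid and kidney cadherin. Their nude 3 levels were 43.5 CPM for Slc5a5, 208 CPM for Iyd and 436 CPM for Cdh16. Foxe1, the remaining factor of thyroid development, had 11 of its 14 counts in nude 3.

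Not every gene of that list followed. Duox1, Duoxa1, Duoxa2 and Dio1 had their highest level in AR3_het 2, Slc26a4 and Dio2 in nude 1, and Ano1 and Lrp2 in nude 2. Dio1, a deiodinase, had 113 CPM in nude 3, at most 1.23 CPM in the other nude libraries and a mean of 135 CPM in AR3_het. Across the 11 tested genes of the list, 2 rose and 1 fell in AR3_mut against AR3_het, and 3 rose and 2 fell in nude against AR3_het. Of all tested genes 21.2% rose and 20.6% fell in AR3_mut against AR3_het, and 23.7% rose and 24.2% fell in nude against AR3_het. Without TMM scaling that balance shifted, with 2074 of 5929 called genes higher in AR3_mut and 2153 of 6995 higher in nude. Lrp2, an endocytic receptor of thyroglobulin, averaged 23.2 ± 22.5 CPM in AR3_mut, 67.8 ± 14.2 CPM in nude and 0.756 ± 0.425 CPM in AR3_het (SD, n = 3, 4 and 3). It rose in nude by 6.37 on the log2 scale (SE 0.70, edgeR's quasi-likelihood test, adjusted p = 2.16e-05). Ano1, a chloride channel, rose in nude by 4.80 (SE 0.42) and Slc26a4, an anion exchanger that carries iodide, by 2.33 (SE 0.35), while Duoxa1, a maturation factor of the peroxide-making oxidase, fell by 3.49 in AR3_mut (SE 0.98). Genes of salivary and lacrimal gland secretion changed as well. Of 6 tested, 3 rose and 2 fell in AR3_mut, and 3 rose and 1 fell in nude, each against AR3_het. The sum of 8 such genes lay between 515 and 18617 CPM in AR3_mut, between 2912 and 126626 CPM in nude, where nude 1 was the highest, and between 144 and 236 CPM in AR3_het. Slc26a4 was also highest in nude 1 and was not called in AR3_mut against AR3_het. Ano1 was highest in nude 2, where the sum was the lowest of the nude group. In nude 1 nearly all of the sum came from Scgb1b27, Prol1 and Scgb2b27, with 48479, 44919 and 33175 CPM. It therefore speaks for these secreted products and not for gland cells in general. Bpifa2 was at 0 in every library of both mutant groups and Dcpp1 in every AR3_mut library, and the part of gland RNA in the levels of Ano1, Slc26a4 and Aqp5 was not tested. Without nude 3 the thyroid list held 3 genes that fell in AR3_mut and 5 that fell in nude against AR3_het. The median log2 fold change of the list was -0.26 in AR3_mut against AR3_het and 0.39 in nude against AR3_het, and that of all tested genes was -0.04 and -0.03.

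**Figure D3:**
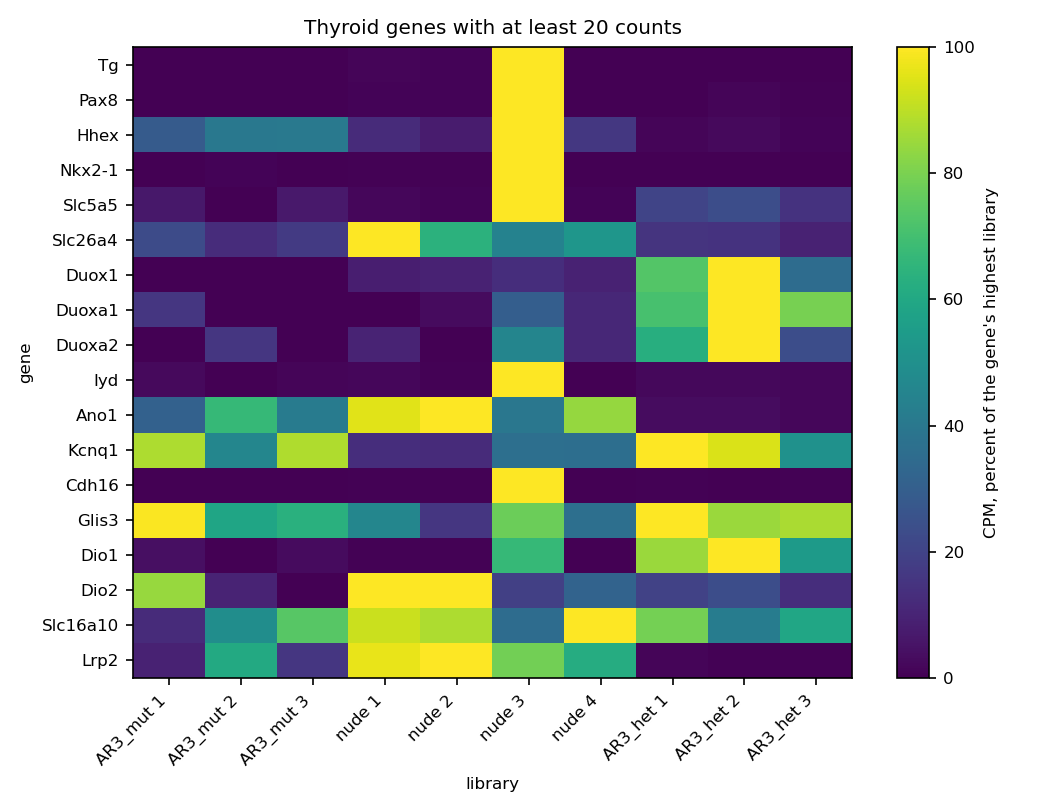
Level of each thyroid gene with at least 20 counts (vertical axis) in each library (horizontal axis), coloured as a percentage of the gene's highest library by CPM. Tg, Pax8, Hhex, Nkx2-1, Slc5a5, Iyd and Cdh16 reach 100% in nude 3, and 11 other genes reach it elsewhere.

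Nude 1 and nude 2 held small and similar fractions of the Tg and Pax8 counts of nude 3, but not of every thyroid gene. The Tg count of nude 1 was 1.91% and that of nude 2 was 1.42% of the count in nude 3. For Pax8 both were 1.51%. Hhex differed, with 18.9%, 10.4% and 21.9% of its nude 3 count in nude 1, nude 2 and nude 4. In the same order Iyd had 2.65%, 0.529% and 0.265%. Tshr, with only 12 counts in nude 3, had 16.7%, 8.33% and 0%. Nude 4 had 1 count of Tg and 0 counts of Pax8 and Cdh16. The number of Tg counts per Cdh16 count was 87.4 in nude 1, 75.7 in nude 2 and 40.5 in nude 3, where nude 1 and nude 2 had only 7 and 6 Cdh16 counts. In AR3_het the proportions were otherwise: Tg had 12, 6 and 12 counts in AR3_het 1 to 3 and Cdh16 had 10, 5 and 9.

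Which of the genes moved together was asked by correlating log2 CPM (prior count 2) across the 10 libraries after each group's mean was subtracted. This compares libraries within groups, so that differences between genotypes do not enter. Tshr, with 19 counts, was left out, which gave 21 pairs of 7 genes. An exact two-sided test over the 864 permutations of libraries within groups gave each p, with a smallest possible value of 0.00116. After Benjamini-Hochberg adjustment over the 21 pairs, 0 passed 0.05, and 3 had an unadjusted p under 0.05.

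The 3 pairs of parathyroid genes had r above 0.8, and none passed after adjustment. Pth and Gcm2 had Pearson r = 0.875 (exact permutation p = 0.00926, adjusted p = 0.194) and Spearman rho = 0.758 (exact permutation p = 0.0370, adjusted p = 0.408). Pth and Casr had r = 0.896 (exact permutation p = 0.0671, adjusted p = 0.352) and rho = 0.709 (exact permutation p = 0.0787, adjusted p = 0.408). Gcm2 and Casr had r = 0.828 (exact permutation p = 0.0301, adjusted p = 0.292) and rho = 0.782 (exact permutation p = 0.0498, adjusted p = 0.408). Without any single library r stayed between 0.816 and 0.942 for Pth and Gcm2, between 0.751 and 0.965 for Pth and Casr, and between 0.747 and 0.865 for Gcm2 and Casr. Without the 2 libraries farthest from the median of the first gene they were 0.917, 0.909 and 0.854. Gcm2 and Casr have 58 and 67 counts in all, so their values in single libraries carry large counting error. Genes of other tissues were as close: Casr had r = 0.944 with Scgb3a2, an airway secretoglobin, and Gcm2 had r = 0.904 with Foxa2, an endoderm factor.

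Among the thyroid genes no pair passed after adjustment either, and r was lower without nude 3 in all 6 pairs. Pax8 and Nkx2-1 had r = 0.975 (exact permutation p = 0.0417, adjusted p = 0.292) and rho = 0.765 (exact permutation p = 0.0972, adjusted p = 0.408), and r was 0.426 without nude 3. Tg had r = 0.861 with Pax8 and 0.805 with Nkx2-1 (exact permutation p = 0.160 and 0.171, adjusted p = 0.514 for both), and without nude 3 these were 0.769 and 0.466. Hhex had r = 0.881 with Pax8, 0.885 with Nkx2-1 and 0.554 with Tg, and all 3 were negative without nude 3, at -0.159, -0.354 and -0.605. The positive r of Hhex with the other thyroid genes therefore rested on that library. Outside nude 3 Pax8 and Nkx2-1 had only 16 and 4 counts. Values of r with either gene in those libraries rest on single counts, and their size and sign say little. Between a parathyroid gene and a thyroid gene r ran from -0.00169 to 0.561 over 12 pairs, with the highest value for Casr and Hhex. When single libraries were left out these ran from -0.501 for Gcm2 and Pax8 (without nude 3) to 0.728 for Casr and Hhex. Nude 3 itself was not the highest nude library of Pth, with 1107 CPM against 1928 CPM in nude 4.

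**Figure D4:**
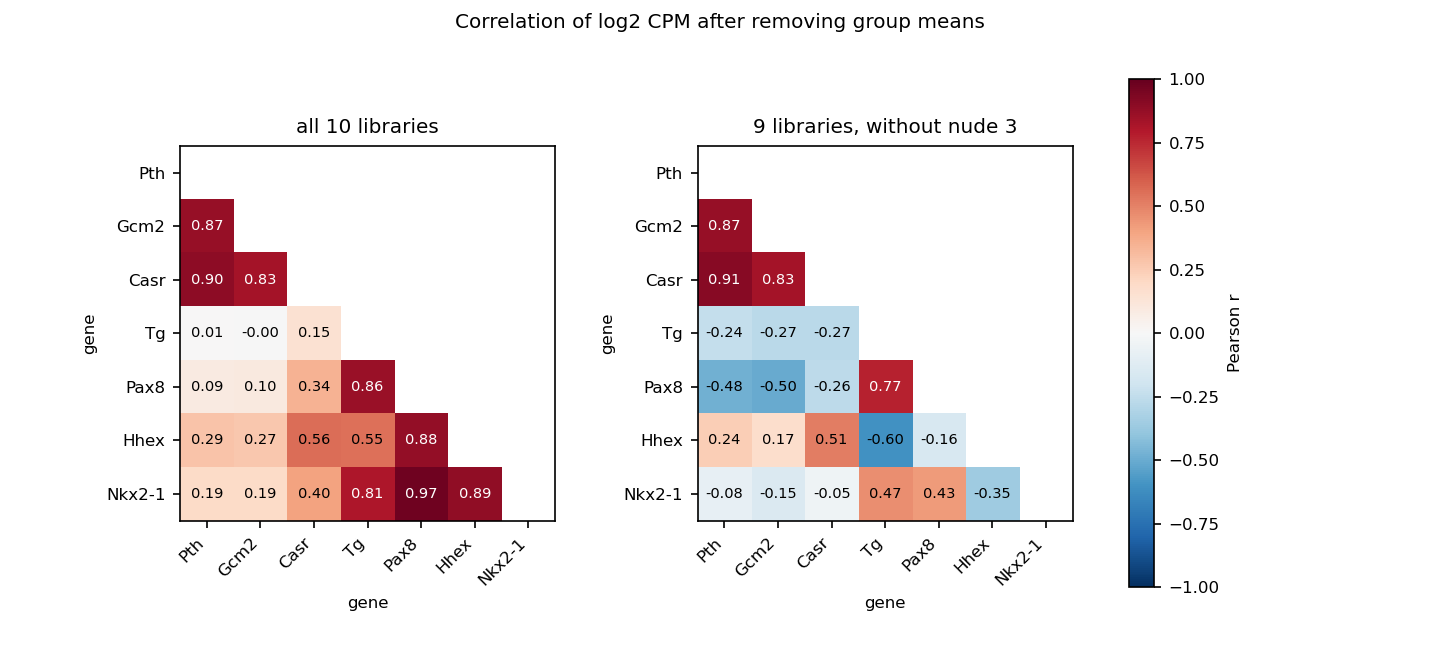
Pearson r between the log2 CPM of 7 genes after subtracting group means (each cell is 1 pair, genes on both axes), in all 10 libraries on the left and without nude 3 on the right. The 3 pairs of Pth, Gcm2 and Casr lie between 0.828 and 0.896 on the left and between 0.831 and 0.910 on the right, and the 3 pairs of Hhex with other thyroid genes change from positive to negative.

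For each parathyroid or thyroid gene with at least 50 counts, the tested genes with the most similar pattern were ranked by the same r over the 10 libraries. For Pth these were Spp1 (0.982), Prkcq (0.978) and Chga (0.977), and for Casr they were Fut4 (0.960), Kl (0.960) and Nom1 (0.959). Kl encodes Klotho, the co-receptor for FGF23, which parathyroid cells also make. For Gcm2 they were Nat9 (0.986), Myo1g (0.960) and Laptm5 (0.950). For Tg they were Napsa (0.961), Grp (0.959) and Limd2 (0.953), and for Pax8 they were Dusp18 (0.988), Fam178b (0.984) and Ager (0.984). For Hhex they were 0610009L18Rik (0.983), Upk1a (0.981) and Slc26a10 (0.976), and for Nkx2-1 they were Dusp18 (0.984), Fam178b (0.984) and Hhip (0.983). Each was picked as the highest among all tested genes. Hhip had 1 count in nude 3 and 0 in the other mutant libraries, so some of these values rest on very few counts.

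**Figure D5:**
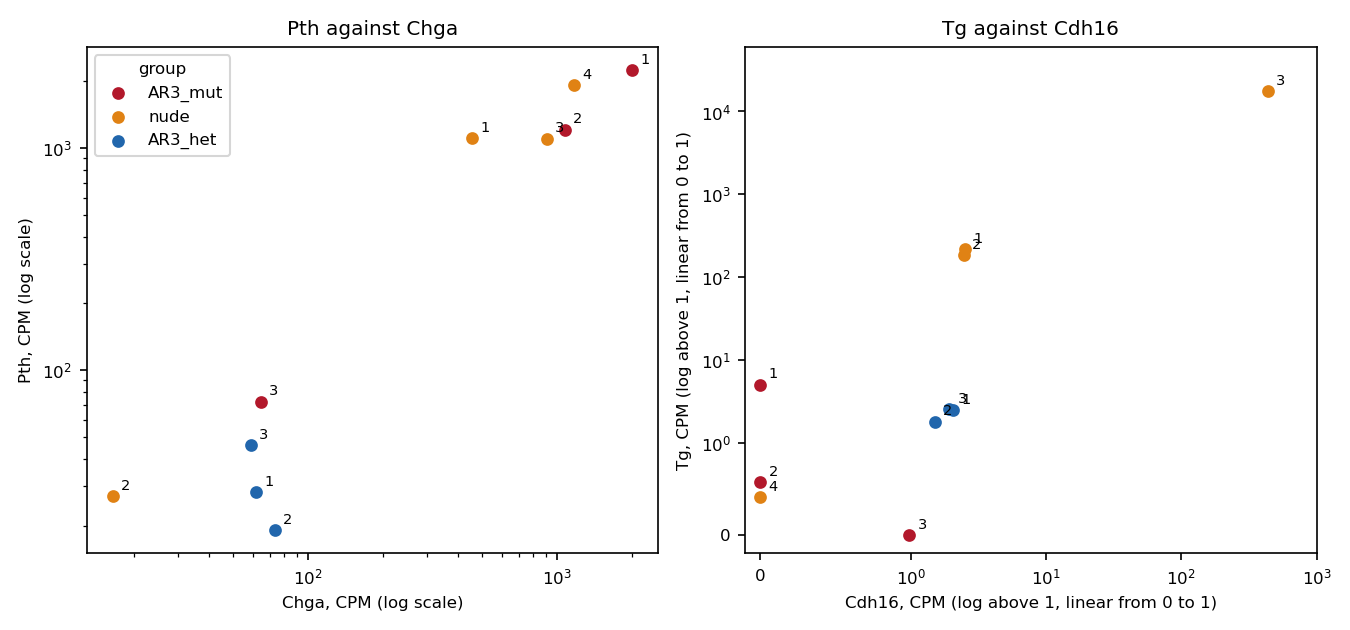
Left, Pth against Chga in CPM on log axes; right, Tg against Cdh16 in CPM on axes that are log above 1 and linear from 0 to 1; each point is 1 library with its number, coloured by group. On the left AR3_mut 3 and nude 2 are the lowest of their groups for both genes, and on the right only nude 1, nude 2 and nude 3 lie above 100 CPM of Tg.

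Genes of the pharyngeal pouch, from which parathyroid and thymus arise, moved in both directions. Of 8 tested, 2 rose and 2 fell in AR3_mut against AR3_het, and 2 rose and 2 fell in nude against AR3_het, beside 21.2% and 20.6% of all tested genes in AR3_mut and 23.7% and 24.2% in nude. Bmp4, a signalling protein of the early thymus primordium, averaged 36.6 ± 1.85 CPM in AR3_mut, 56.9 ± 7.61 CPM in nude and 3.14 ± 0.375 CPM in AR3_het (SD, n = 3, 4 and 3), and rose by 4.14 on the log2 scale in nude (SE 0.21, edgeR's quasi-likelihood test, adjusted p = 1.49e-07). Tbx1, a pouch factor that opposes thymus fate, averaged 30.0 ± 10.1 CPM in AR3_mut, 6.78 ± 5.64 CPM in nude and 2.07 ± 1.68 CPM in AR3_het and rose by 3.93 in AR3_mut (SE 0.68, adjusted p = 0.000765, same edgeR test). Its call in nude (1.77, adjusted p = 0.0490, same edgeR test) was lost without nude 4 (0.98, adjusted p = 0.207), without AR3_het 1 or 3 and without any 1 AR3_mut library. Pax1, a pouch factor that TEC keep, averaged 71.3 ± 46.2 CPM in AR3_mut, 58.0 ± 9.37 CPM in nude and 714 ± 110.5 CPM in AR3_het and fell by 3.62 in nude (SE 0.34, adjusted p = 7.36e-06, same edgeR test). Fibroblast and pericyte genes were also higher in both mutant groups: of 7 tested, 7 rose in AR3_mut and 6 in nude against AR3_het. The sum of 8 such genes lay between 3087 and 6579 CPM in AR3_mut and between 4686 and 12924 CPM in nude. In AR3_het it lay between 191 and 320 CPM, and none of the 8 was at 0 throughout a group. Tbx1 was highest in AR3_mut 1, where this sum was the lowest of both mutant groups. The sum was made up largely of fibroblast genes: in nude 2 Dcn and Col1a1 had 5954 and 3039 CPM. The pericyte genes Pdgfrb and Rgs5 reached 218 CPM in AR3_mut 3 and 629 CPM in AR3_mut 2. In nude libraries they had at most 70.5 and 170 CPM. The part of fibroblast and pericyte RNA in the levels of Bmp4 and Tbx1 was not tested.

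Of 10 tested genes of calcium and parathyroid hormone signalling, 4 rose and 4 fell in AR3_mut and likewise in nude against AR3_het. All tested genes were split as evenly, with 21.2% higher and 20.6% lower in AR3_mut and 23.7% higher and 24.2% lower in nude. Pth1r, the parathyroid hormone receptor, averaged 29.4 ± 6.74 CPM in AR3_mut, 6.55 ± 5.35 CPM in nude and 2.29 ± 1.08 CPM in AR3_het (SD, n = 3, 4 and 3) and rose by 3.65 in AR3_mut (SE 0.68, edgeR's quasi-likelihood test, adjusted p = 0.00118). Among the receptor activity-modifying proteins, partners of calcitonin-family receptors, Ramp2 rose by 4.91 in AR3_mut (SE 0.37), while Ramp1 fell by 5.45 (SE 0.69) and Ramp3 by 3.05 (SE 0.39) in nude. Ramp2 is also an endothelial gene, and the endothelial sums given above moved with it.

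C cells of the thyroid make calcitonin and share Chga and Nkx2-1 with the genes above. Of 6 tested C-cell genes, Chga was the 1 that rose in AR3_mut against AR3_het, in the call near the threshold given above, and the other 5 fell, where 20.6% of all tested genes fell. Calca, the calcitonin gene, averaged 0.715 ± 0.624 CPM in AR3_mut, 2.02 ± 0.379 CPM in nude and 57.5 ± 21.7 CPM in AR3_het (SD, n = 3, 4 and 3) and fell by 6.53 in AR3_mut (SE 0.59, edgeR's quasi-likelihood test, adjusted p = 7.21e-06). Calcb fell by 6.48 (SE 0.85) in AR3_mut and Chgb fell by 5.68 (SE 0.97) there. Medullary TEC genes fell with them: of 7 tested, 5 fell in AR3_mut and 7 in nude against AR3_het. Their sum lay between 144 and 650 CPM in AR3_mut, between 220 and 372 CPM in nude and between 1540 and 2374 CPM in AR3_het. Aire, the regulator by which medullary TEC express genes of other tissues, averaged 1.29 CPM in AR3_mut, 0.240 CPM in nude and 251 CPM in AR3_het. Cd80 was at 0 in all libraries of both mutant groups and Fezf2 in all of nude, and the part of medullary TEC in the fall of the C-cell genes was not tested. In nude 3, Calca, Calcb, Chgb and Scg2 had 4, 12, 1 and 0 counts, while Chga and Gfra4 had 1644 and 65, beside 31996 of Tg.

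Airway and lung epithelium shares Nkx2-1 with the thyroid. Of 11 tested airway genes, 3 rose and 1 fell in AR3_mut, and 1 rose and 3 fell in nude, each against AR3_het, beside 21.2% and 20.6% of all tested genes in AR3_mut and 23.7% and 24.2% in nude. Scgb1a1, the club-cell secretoglobin, averaged 0.322 ± 0.294 CPM in AR3_mut, 0.377 ± 0.520 CPM in nude and 85.2 ± 20.2 CPM in AR3_het (SD, n = 3, 4 and 3) and fell by 7.87 in nude (SE 0.49, edgeR's quasi-likelihood test, adjusted p = 4.85e-07). Scgb3a1, an airway secretoglobin, had 2266, 353 and 49.6 CPM in AR3_mut 1 to 3 and rose by 7.78 in AR3_mut (SE 1.47), but by 5.66 without AR3_mut 1. That library also had the highest airway sum, 6974 CPM against 1288 and 1576 CPM in AR3_mut 2 and 3. Aqp5, a water channel of glands and lung, rose by 4.02 in nude (SE 0.33) and was highest in nude 4. The salivary and lacrimal genes given above had their highest sum in nude 1. Sftpd, a surfactant protein, fell by 6.26 in nude (SE 0.97). In nude 3, Sftpb, another surfactant protein, had 133 CPM, 43.1-fold above the next library. Sftpc had 39.7 CPM in nude 3, at most 1.22 CPM in the other nude libraries and 48.7 CPM in AR3_mut 1, its highest library. Sftpd and Scgb1a1 had 11 and 2 counts in nude 3. These 2 genes, Scgb3a2, Foxj1 and Foxa1 were also highest of the nude group in nude 3. Scgb3a1, Bpifa1, Cyp2f2, Foxa2 and Aqp5 were higher in another nude library. The summed level of the 12 airway genes was 1376 CPM in nude 3, within the range of 535 to 1611 CPM of the other nude libraries. Bpifa1, Aqp5 and Cyp2f2 gave most of it, with 523, 303 and 244 CPM, so the sum says little about the surfactant genes. Ager and Napsa, described below and outside this list, had 2332 and 1315 CPM in nude 3. In every other library they had at most 31.6 and 23.3 CPM. The part of airway or lung RNA in the Nkx2-1 level of nude 3 was not tested.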

How the data were processed

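RNA was counted by MARS-seq in 10 libraries of sorted mouse thymic epithelial cells, grouped by the labels' genotype. Counts were deposited by the authors as whole numbers of reads or tags per gene, per the file headers. Per the file headers, the deposited table also gives a log2 fold change and an adjusted p-value from the authors in each of 3 comparisons; their name Foxn1_ATAC was taken as AR3_mut, since Het and nude name the other groups. The submitters' processing notes list bcl2fastq, cutadapt, STAR 2.4.2a, HTSeq, DESeq2 and mm10 without roles. Whether molecular identifiers were collapsed is not stated there, and intervals on counts speak of counting error alone. Another 20 columns of values per library were not used.

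Counts were filtered by filterByExpr (minimum count 10, minimum total 15), scaled by TMM and fitted with edgeR 4.0.16 in R 4.3.3, by a robust quasi-likelihood model over all 10 libraries with group as its term. Tests were two-sided with Benjamini-Hochberg adjustment over 12912 genes at 0.05. The SE is the absolute log2 fold change divided by the square root of F. AR3_mut and nude were both compared with the same AR3_het libraries, so these comparisons share their controls. DESeq2 1.42.0, limma 3.58.1 (voom), other scalings and filters, a replicate block and leaving out each library were the alternatives. The scripts were tested on simulated counts. Members, gene lists and tests were chosen with earlier results of these data known. Genes outside the 8 were named by size of change, up to 4 from each list, and as the 3 most similar patterns per gene with at least 50 counts. Epcam, Aire, Chga, Iyd, Cdh16, Dio1, Slc5a5, Foxe1, Sftpb, Sftpc, Scgb3a2, Foxa2, Ddx3y, Bpifa2, Dcpp1, Cd80, Fezf2 and the genes of the closing observations were named for what they mark or because they were singled out after their values were seen. The same holds for Foxj1, Foxa1, Bpifa1, Cyp2f2, Dcn, Col1a1, Pdgfrb, Rgs5, Scgb1b27, Scgb2b27, Prol1, Gfra4, Scg2 and Xist. Gene positions come from GENCODE M21 (GRCm38) and promoter windows of 250 bases from RefSeq (GRCm38.p6), which matched 6 of the 8 genes. Slc26a7, Duox2, Sox3, Pth2r, Cyp24a1, Ret and Sftpa1 belong to the lists and were not analysed here, and some other genes of the lists are not reported here.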

Additional observations from a re-analysis of the deposited data

Results flagged for a closer look

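In 7 of 29 genes looked at, 1 of the 4 nude libraries lay farther from the other 3 than Dixon's 95% critical value allows. The genes were chosen with earlier results of these data known, and the rule was applied to CPM without a log. No rate expected by chance can therefore be set beside this number. In 6 of these genes that library was nude 3, and 5 of them were among the parathyroid and thyroid genes.

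Tg had 17628 CPM in nude 3, Pax8 had 109.6 CPM, Hhex had 111 CPM, Nkx2-1 had 66.7 CPM and Tshr had 6.61 CPM. Of the other genes, Sftpd had 6.06 CPM in nude 3. Ramp1 had 0.408 CPM in nude 4, a single count, and 0 in the other nude libraries, a pattern that passes this limit by construction and says nothing about chance. Pth, Gcm2 and Casr passed this limit in none of the 4 nude libraries.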

How the results depend on the processing

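The counts of genes that passed lay within 1.5 times of those reported under all alternatives for AR3_mut against AR3_het and nude against AR3_het. AR3_mut against nude had 1460, but 948 with the replicate block, 952 with only these 2 groups in the model and 883 to 1993 when single libraries were left out (883 without nude 1, 904 without AR3_mut 1, 1993 without nude 3). Without TMM scaling the median log2 fold change of all genes moved to -0.33 in AR3_mut and -0.40 in nude against AR3_het, and 35% and 30.8% of the called genes were higher, in place of 50.7% and 49.5%. Hhex kept both calls against AR3_het in all 16 alternatives. With limma-voom Pth and Gcm2 lost their calls in AR3_mut (adjusted p = 0.0501 and 0.0765), as did Gcm2 in nude (0.0879); Gcm2 in nude was also lost without TMM scaling (0.0627). DESeq2 gave no adjusted p for Tg in any of the 3 comparisons.

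Values that changed sign had not passed the test. The Tg difference between AR3_mut and AR3_het, 0.06, was -0.24 without TMM scaling, -0.76 with limma-voom and -2.53 to 0.43 over left-out libraries. For AR3_mut against nude, leaving out single libraries gave -0.70 to 0.73 for Pth, -0.28 to 0.99 for Gcm2 and -0.22 to 1.57 for Hhex. The r of Hhex ran from -0.605 to 0.808 with Tg, from -0.159 to 0.959 with Pax8 and from -0.354 to 0.924 with Nkx2-1, lowest without nude 3 each time; the cause was not tested. No pair of genes passed after adjustment in any setting.

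Libraries with the same number did not deviate together (correlations -0.310 to 0.157), so the numbers did not pair them. With the number as a block, 4796 genes passed for AR3_mut against AR3_het and 5242 for nude against AR3_het; among the 8 genes the calls that changed were Pth (adjusted p = 0.0699) and Gcm2 (0.175) in nude against AR3_het and Tg (0.0417) in AR3_mut against nude (edgeR's quasi-likelihood test). Depth limits Gcm2, Casr, Pax8, Nkx2-1 and Tshr, each with 0 counts in at least 1 library.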

Other observations

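Genes outside the thyroid lists were also high in nude 3 alone. Of 8849 genes with at least 20 counts in nude 3, 36 (0.407%) had a level there at least 8-fold above each of the other 9 libraries, and 5 of these were Tg, Pax8, Nkx2-1, Cdh16 and Iyd. By the same rule AR3_mut 1 had 29 genes and each of the other 8 libraries had 0 to 7. Among the 36 in nude 3 were Ager, a receptor abundant in lung alveoli, with 2332 CPM, Napsa, an aspartic protease of lung and kidney, with 1315 CPM, Grp, gastrin-releasing peptide, with 1231 CPM, and Asgr1, a hepatic lectin, with 969 CPM. Hoxb6 and Hoxb8, homeobox genes of position along the body axis, had 189 and 61.2 CPM there.

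Some of these genes, but not all, had counts in nude 1 and nude 2 that were a similar small percentage of the count in nude 3. For Ager these were 1.94% in nude 1 and 1.82% in nude 2, for Napsa 1.63% and 1.72%, for Grp 1.79% and 1.30%, and for Cdh16 0.885% and 0.759%. In nude 4 the same genes had 0.236% (Ager), 0.0419% (Napsa), 0% (Grp) and 0% (Cdh16) of the nude 3 count. Asgr1 differed, with 4.43% in nude 1, 3.30% in nude 2 and 2.90% in nude 4. So did Smoc2 (6.22%, 7.14% and 5.29%) and 1500015O10Rik (11.3%, 8.59% and 15.6%) in the same order. Gng4 had 12.2% in nude 1 and 13.0% in nude 2. Over the 7 genes with at least 1000 counts in nude 3, the percentages ran from 1.63% to 11.3% in nude 1. They ran from 1.30% to 8.59% in nude 2 and from 0% to 15.6% in nude 4. Grp had more counts in AR3_het, with 352, 261 and 207 in AR3_het 1 to 3, than in any library of either mutant group other than nude 3. The reason for the similar percentages was not tested.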
